A study of Mus musculus with 14 samples.

Results

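Chemokine receptors are 7-pass membrane proteins coupled to inhibitory G proteins, and they steer T cells along gradients of chemokines. Which receptors a T cell carries sets where it goes, and CCR7 leads naive cells into lymphoid tissue. The receptors described here are known for leading T cells, often activated or memory cells, into inflamed tissue, bone marrow, liver, skin or gut. They are not limited to such cells, as the study lists Ccr9 among its markers of naive CD8 T cells. CCR2 and CX3CR1 are also known for guiding monocytes. Here 9 such genes, Cxcr3, Cxcr4, Cxcr6, Ccr2, Ccr4, Ccr8, Ccr9, Cx3cr1 and Ccr10, were taken by symbol from the 24091 genes counted. They are a chosen set and not the whole family: the lymphoid homing receptor genes Ccr7, Ccr6 and Cxcr5 were set apart, and further receptors such as Ccr1, Ccr3 and Cxcr2 also lie outside it. All 9 were listed, and all 9 passed the filter on low counts with 12248 genes in total.

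The RNA came from T cells sorted from spleen, 200000 cells per mouse and 1 library per mouse. The 8 CP CML mice were Mir142+/+BCR-ABL, a transgenic model of chronic phase chronic myeloid leukemia (CML), and the 6 BC CML mice were Mir142-/-BCR-ABL, the model of blast crisis. Both groups carried SCLtTA/BCR-ABL, in which BCR-ABL is expressed in hematopoietic stem and progenitor cells once tetracycline is withdrawn, and in both BCR-ABL had been switched on for 3 weeks. The mice were males and females of 6 to 10 weeks on the CD45.2 C57Bl/6j background. Mir142 was missing in all cells of the BC CML mice and not in T cells alone, and no mice without BCR-ABL were part of the comparison. The mice of each group shared a name prefix that the other group lacked. What the prefix stands for was not stated, and it cannot be told apart from genotype.

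Libraries held 15703702 to 19914531 reads in CP CML and 16145537 to 19399720 in BC CML. Mir142, the deleted gene, had 302 to 650 reads in the CP CML mice and 0 reads in every BC CML mouse. The T cell genes Cd3e and Cd3d were at 404 ± 25.6 and 324 ± 12.3 CPM (mean ± SD; the read count over the library size, scaled by edgeR's TMM factors) in CP CML and at 410 ± 18.1 and 308 ± 15.2 in BC CML. Of 8 T cell identity genes tested, these and 2 others did not pass the test used below, while Cd3g (log2 fold change 0.59) and Cd8a rose and Cd247 (-0.32) and Cd4 fell. Markers listed for other cell types differed between the groups. The CPM summed over 12 monocyte and macrophage markers ranged from 211 to 329 in CP CML and from 784 to 1005 in BC CML. Its largest term was Ly6c2, at 86.6 ± 8.5 CPM in CP CML and 402 ± 46.5 in BC CML. Of the 12 markers 11 rose, where 32.6% of all tested genes were higher. The sum over 10 neutrophil markers went from 8.42 to 595 in CP CML and from 631 to 1898 in BC CML, and all 10 rose. The sum over 8 natural killer (NK) cell markers went from 82.8 to 114.5 and from 248 to 472, with 7 of 7 tested markers higher and Klra4 at 0 reads in every library. B cell markers rose in 7 of 8 cases, with sums of 58.4 to 173.5 CPM in CP CML and 101.2 to 525 in BC CML, and dendritic cell markers in 3 of 6 tested, among them Itgax (log2 fold change 2.74), with sums of 7.52 to 21.99 and 33.4 to 123.6 CPM. No marker of the monocyte or neutrophil list was at 0 reads throughout. In RNA from a whole sorted population, fewer cells of a type and less RNA per cell cannot be told apart.

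The deleted microRNA has 2 mature arms, which are shown because their seed, the bases 2 to 8 that pair with targets, was searched for in the receptors' 3'UTRs. Both are from RefSeq (GRCm38.p6, chromosome 11, plus strand, 87756903 to 87756925 for the 3p arm and 87756867 to 87756887 for the 5p arm), with the seed in capitals.
mmu-miR-142a-3p: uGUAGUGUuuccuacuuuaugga
mmu-miR-142a-5p: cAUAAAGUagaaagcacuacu

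In the GENCODE vM21 annotation of mm10, Ccr9 was the only member of the 9 whose longest 3'UTR held a match to either arm. That 3'UTR had 3966 bases and covered chr9:123780365-123784330 on the plus strand. It held the 8-base match ACACTACA to miR-142-3p (8mer, complementary to the seed and ending in A) at its bases 2639 to 2646, and the 7-base match CACTACA at bases 2324 to 2330 and 2365 to 2371. They are shown with their flanks on the plus strand, the match in capitals, at chr9:123783003-123783010, chr9:123782688-123782694 and chr9:123782729-123782735.
Ccr9 8mer: ggagtttgggaACACTACAggaaacacagg
Ccr9 7mer at 2324: cacagtcacagCACTACAcattcagacta
Ccr9 7mer at 2365: atgagccacagCACTACAcaggtggcatt

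The search also covered ACACTAC for the 3p arm and ACTTTATA, ACTTTAT and CTTTATA for the 5p arm, on the transcribed strand, with a 7-base match not counted again inside an 8mer. Of 11503 tested genes with a 3'UTR, 350 (3.04%) held the 3p 8mer and 12.1% held any 3p match. The share with the 8mer was 5.22% among genes higher in BC CML and 1.40% among genes lower in BC CML. Long 3'UTRs hold more matches: among 1348 tested genes with a 3'UTR of 3000 to 5000 bases, 6.45% held the 8mer and 9 (0.668%) held at least 3 matches to the 3p arm. The other 8 receptors held none of these letters in 3'UTRs of 24 bases (Ccr8) to 2701 bases (Ccr2), as the map of 3'UTRs shows.

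**Figure D1:**
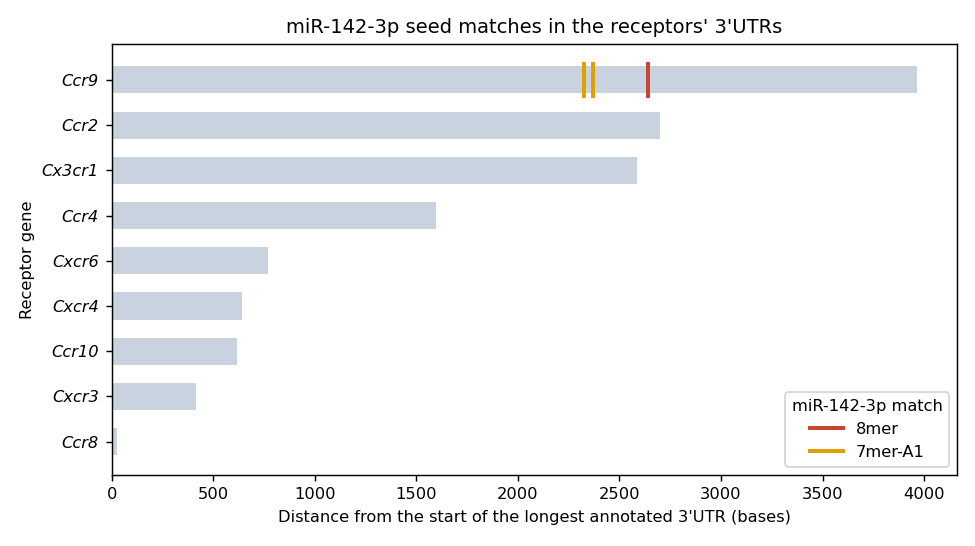
Longest annotated 3'UTR of each receptor gene as a bar (horizontal axis, bases from the start of the 3'UTR), with marks for 8-base and 7-base matches to the miR-142-3p seed. Only Ccr9, the longest at 3966 bases, carries marks, with 2 7-base matches near bases 2324 and 2365 and the 8mer at base 2639.

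BC CML T cells held more RNA of 5 of the 9 receptors (Cx3cr1, Ccr9, Cxcr6, Cxcr4 and Cxcr3) and less of 2 (Ccr4 and Ccr8). Ccr2 and Ccr10 did not pass the test, a quasi-likelihood test in edgeR, with p adjusted by Benjamini-Hochberg over all tested genes and a threshold of 0.05. The comparison was broad, and 65.2% of all tested genes passed, 32.6% higher and 32.7% lower in BC CML, so 7 of 9 is a count near what genes in general showed. In 5 receptors the ranges of the groups did not overlap (4 higher and Ccr4 lower), against 36.9% of all tested genes, 19.3% higher and 17.6% lower. The median log2 fold change of the 9 was 0.55, beside -0.01 over all tested genes.

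**Figure D2:**
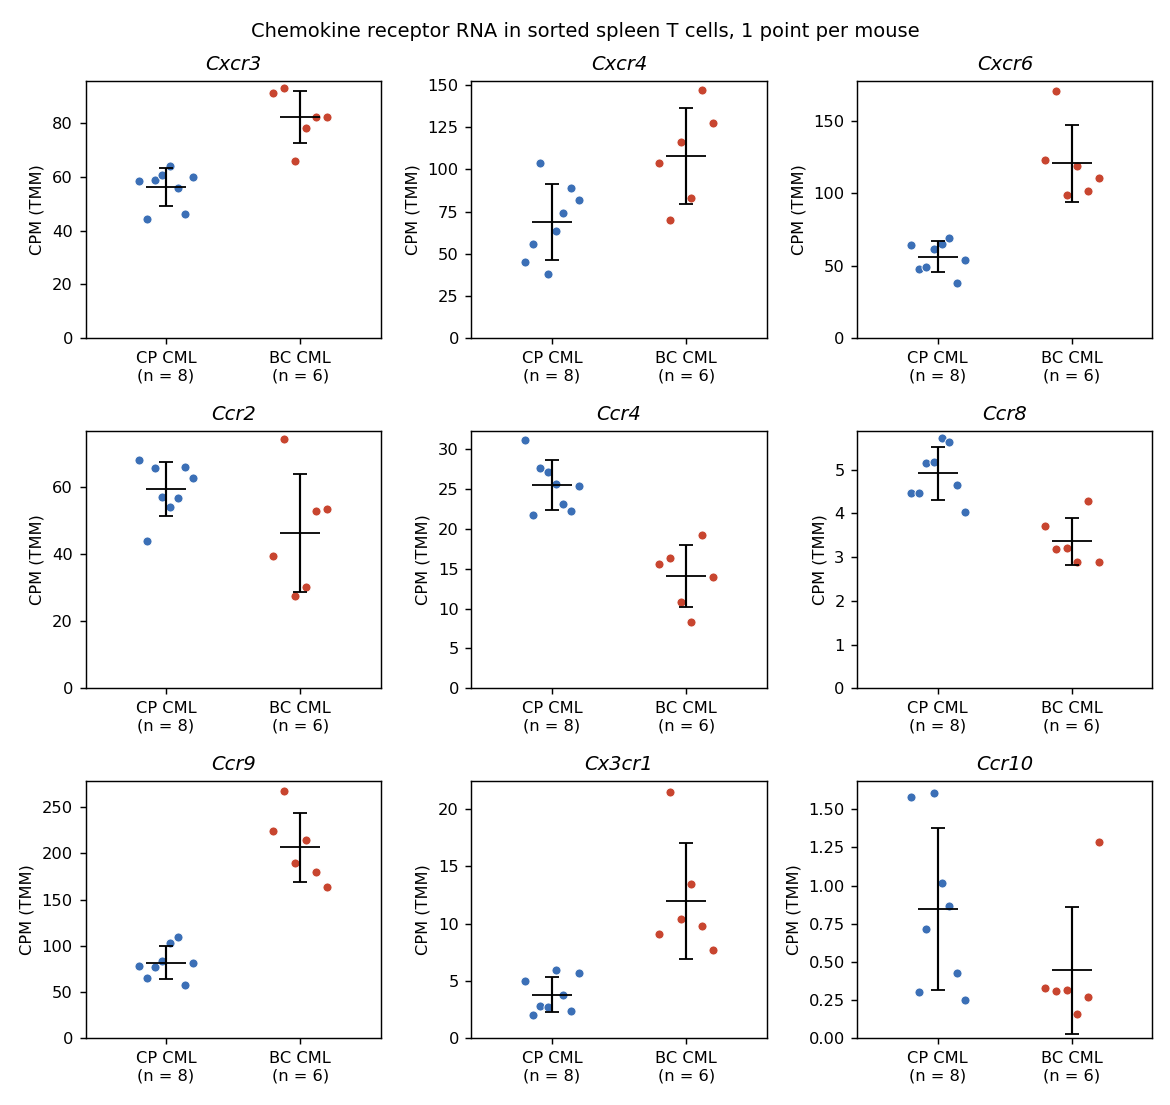
CPM (vertical axis, TMM-scaled, from 0) of each of the 9 receptor genes in 8 CP CML and 6 BC CML mice, 1 point per mouse, with the group mean and SD as a dash and bars. Ccr9, Cxcr6, Cxcr3 and Cx3cr1 are higher in every BC CML mouse than in any CP CML mouse, Ccr4 is lower in every BC CML mouse, and the groups overlap for Cxcr4, Ccr2, Ccr8 and Ccr10.

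Cxcr3 binds the interferon-induced chemokines CXCL9, CXCL10 and CXCL11 and brings type 1 and cytotoxic T cells into inflamed tissue. The file lists it on the minus strand of chromosome X of mm10 from 101731535 to 101734147. Its level in CP CML was 44.3 CPM in the lowest mouse, 58.8 at the median and 64.3 in the highest, and in BC CML it was 66.1, 82.5 and 93.4. The lowest BC CML mouse was above the highest CP CML mouse. The mean rose from 56.2 ± 7.14 to 82.4 ± 9.83 (SD, n = 8 and 6), a log2 fold change of 0.55 (SE 0.088, adjusted p = 4.19e-05 by edgeR's quasi-likelihood test).

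Cxcr6, the receptor for CXCL16, marks tissue-resident and liver-homing T cells and NKT cells. It lies at chr9:123806477-123811754 on the plus strand, within the span of Fyco1 on the opposite strand, with no shared exon base. The lowest, median and highest CP CML mice had 38.2, 57.9 and 69.4 CPM, and the BC CML mice had 98.7, 114.8 and 170.9. No BC CML mouse reached down to the CP CML range, and the highest, BC CML replicate 2, stood apart from the other 5. The mean went from 56.1 ± 10.7 to 120.6 ± 26.4, which is a log2 fold change of 1.10 (SE 0.145, adjusted p = 1.09e-05), and without replicate 2 it was 0.98.

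Ccr9 binds CCL25, is carried by developing thymocytes and directs T cells to the small intestine. It was the most abundant of the 9 by CPM in both groups. CP CML mice held 57.7 CPM at the lowest, 79.9 at the median and 109.8 at the highest, and BC CML mice 163.9, 202.2 and 267.4. The groups did not overlap. The mean rose 2.52-fold, from 82.0 ± 17.6 to 206.5 ± 37.2 CPM (log2 fold change 1.33, SE 0.144, adjusted p = 1.51e-06), and 93.2% of tested genes had a smaller log2 fold change. This is the receptor whose 3'UTR holds the 8mer printed above. The study lists Ccr9 among its markers of naive CD8 T cells and of double negative T cells. Ccr9 runs from 123678096 to 123783457 on chromosome 9. In the annotation used here 21.5% of its exon bases overlapped Slc6a20a, Gm17200 or AC165425.1, and the last 2 were not listed with the counts. How reads in those bases were assigned was not stated, and Slc6a20a itself had too few reads for a test, 0.059 CPM in CP CML and 0.054 in BC CML.

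Cx3cr1 binds fractalkine (CX3CL1) and marks late effector T cells, NK cells and patrolling monocytes. It showed the largest log2 fold change of the 9, from a low level. In CP CML it had 34 to 94 reads per library, or 2.08, 3.32 and 5.98 CPM in the lowest, median and highest mouse, and in BC CML 149 to 344 reads, or 7.66, 10.1 and 21.4 CPM. Every BC CML mouse was above the CP CML range, and the top value was again BC CML replicate 2. The mean rose 3.15-fold, from 3.80 ± 1.54 to 12.0 ± 5.02 CPM (log2 fold change 1.65, SE 0.273, adjusted p = 7.21e-05). Myeloid and NK markers of the lists above were also higher in BC CML. Lyz2, a lysozyme of myeloid cells, rose by 3.01 on the log2 scale without overlap between groups. The NK receptor gene Klra8 rose by 6.73, from 0 to 5 reads per CP CML library to 185 to 326 in BC CML. The size of that change rests on a near-zero level in CP CML. The other tested NK markers rose by 1.56 to 2.93. With the mean log2 level of the monocyte and neutrophil markers as a covariate, the Cx3cr1 log2 fold change was 1.13 (SE 0.556, adjusted p = 0.133). That marker level correlated with the group itself at r = 0.855 over 14 mice, and its part in the Cx3cr1 result was not tested.

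Cxcr4, the receptor for CXCL12, holds cells in bone marrow and follows them into many tissues. It varied more between mice of a group than Cxcr3 did, with 37.8, 68.9 and 103.6 CPM in the lowest, median and highest CP CML mice and 70.3, 109.8 and 146.9 in the BC CML mice. The ranges overlapped, and 4 of the 6 BC CML mice were above the highest CP CML mouse. Its mean rose from 68.8 ± 22.5 to 107.9 ± 28.3 CPM (log2 fold change 0.65, SE 0.232, adjusted p = 0.0252). This call rested on single libraries: without BC CML replicate 5 the log2 fold change was 0.54 (adjusted p = 0.0653) and without BC CML replicate 6 it was 0.60 (adjusted p = 0.053). With the myeloid marker level as a covariate it was 0.37 (adjusted p = 0.587).

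Ccr4 is the receptor for CCL17 and CCL22 and is carried by type 2 helper, skin-homing and regulatory T cells. CP CML mice had 21.7, 25.5 and 31.1 CPM at the lowest, median and highest, and BC CML mice 8.37, 14.8 and 19.2. The groups did not overlap, with all 6 BC CML mice lower. The mean fell 1.82-fold, from 25.5 ± 3.15 to 14.1 ± 3.93 CPM (log2 fold change -0.86, SE 0.148, adjusted p = 9.27e-05), and only 3.86% of tested genes had a lower log2 fold change.

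Ccr8, the receptor for CCL1 and CCL8 and a marker of activated regulatory T cells in tissue, was low in both groups, with 64 to 104 reads in CP CML and 51 to 79 in BC CML. These were 4.03, 4.91 and 5.73 CPM in the lowest, median and highest CP CML mice and 2.88, 3.19 and 4.28 in the BC CML mice. Of the 6 BC CML mice, 5 were below the CP CML range. The mean fell from 4.91 ± 0.603 to 3.36 ± 0.547 CPM (log2 fold change -0.55, SE 0.124, adjusted p = 0.000816), and with the myeloid covariate the log2 fold change was -0.35 (adjusted p = 0.266).

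Genes of the cells that carry Ccr4 and Ccr8 did not move as a block. Foxp3, the defining factor of regulatory T cells, fell 3.31-fold from 94.2 ± 8.14 to 28.5 ± 4.32 CPM, and Ctla4 fell by 1.34 on the log2 scale. Ikzf2 and Tnfrsf9, which activated cytotoxic T cells also express, rose by 0.62 and 0.97. Il2ra did not pass the test (0.12, adjusted p = 0.197). The summed CPM of these 5 markers was 444 to 515 in CP CML and 426 to 605 in BC CML, with Ikzf2 the largest term (203 ± 22.9 and 312 ± 62.6 CPM), so it does not follow Foxp3. Cd4 fell from 404 ± 25.2 to 243 ± 45.8 CPM, a log2 fold change of -0.73, while Cd8a rose from 689 ± 64.3 to 1263 ± 160.0, a log2 fold change of 0.87. Cd8b1, which encodes the partner chain of CD8, did not pass (0.07, adjusted p = 0.352). The part of these shifts in the receptor results was not tested.

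Ccr2 binds CCL2, CCL7 and CCL12 and is carried by inflammatory monocytes and by memory and effector T cells. It did not pass the test. CP CML mice had 44.0, 60.1 and 68.4 CPM at the lowest, median and highest and BC CML mice 27.4, 46.2 and 74.5. BC CML spanned a wider range: 3 of its 6 mice were below every CP CML mouse and 1, replicate 2, was above them all. The means were 59.5 ± 8.04 and 46.3 ± 17.6 CPM, a log2 fold change of -0.36 with a 95% interval from -0.75 to 0.02 (adjusted p = 0.123). Without BC CML replicate 2 it was -0.55 (adjusted p = 0.0111). Of the 12 monocyte markers given above 11 rose, among them Ly6c2 (2.22) and Fn1 (3.41), and Csf1r (0.38, adjusted p = 0.200) did not pass. With the myeloid marker level as a covariate the Ccr2 log2 fold change was -0.54 (adjusted p = 0.322). The part of these markers in the Ccr2 values was not tested.

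Ccr10, a skin and mucosal homing receptor for CCL27 and CCL28 also known from plasma cells, was close to the limit of the libraries, with 4 to 32 reads in CP CML and 3 to 25 in BC CML. The CP CML mice had 0.252, 0.79 and 1.604 CPM at the lowest, median and highest, and the BC CML mice 0.157, 0.313 and 1.29. The ranges overlapped, and BC CML replicate 6 was far above the other 5. It did not pass the test, and the call changed with 1 library and with the model: the log2 fold change was -0.92 with a 95% interval from -1.89 to 0.04 (adjusted p = 0.11), and without replicate 6 it was -1.62 (adjusted p = 0.00591). With the replicate number as a block it was -1.25 (adjusted p = 0.0488), and with the myeloid covariate it turned to 0.047 (adjusted p = 0.977). Of 4 tested plasma cell markers, Jchain (-3.22) and Sdc1 (-1.21) fell, Derl3 (1.03) rose and Mzb1 (-0.49, adjusted p = 0.346) did not pass. Their sum, most of it Jchain in CP CML, was 8.53 to 72.0 CPM in CP CML and 3.78 to 8.91 in BC CML, and their part was not tested.

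**Figure D3:**
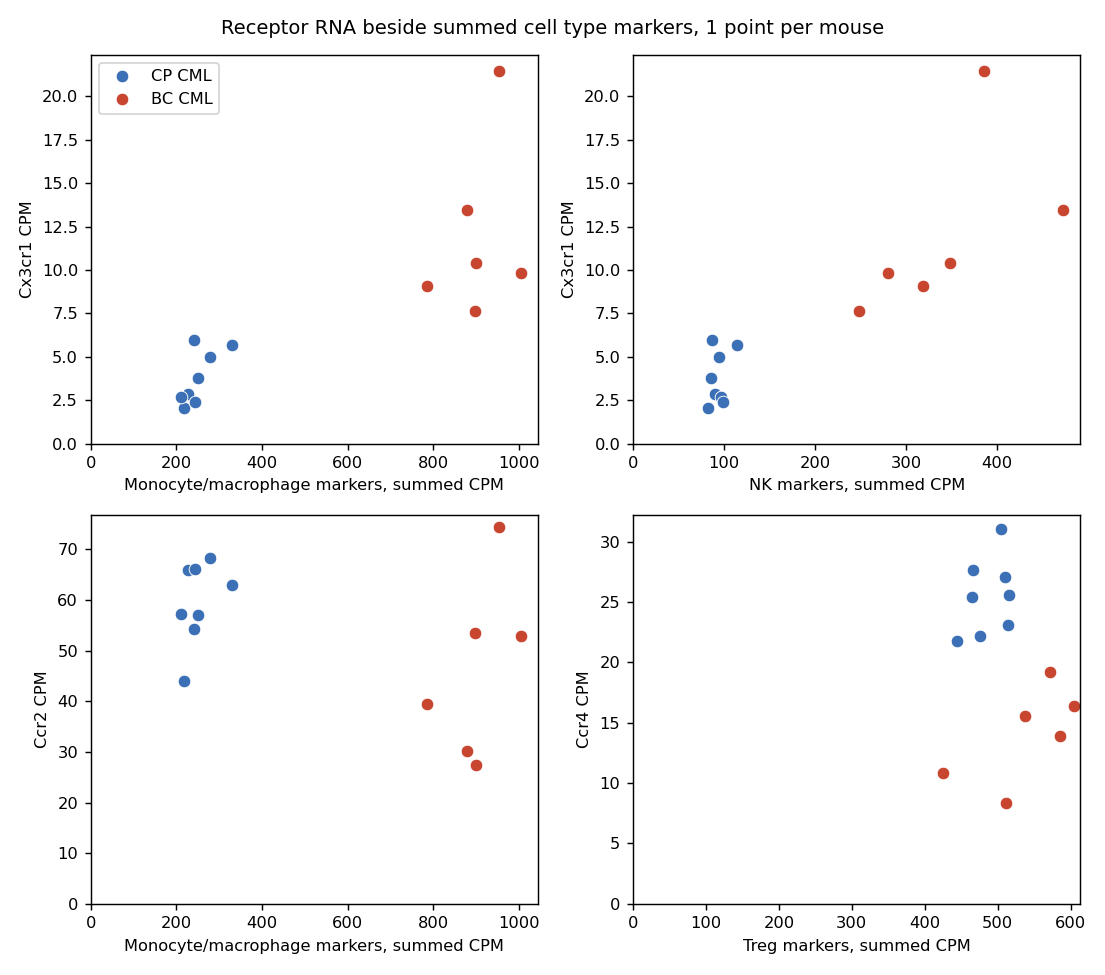
CPM of Cx3cr1, Ccr2 and Ccr4 (vertical axes) against the summed CPM of cell type markers (horizontal axes), 1 point per mouse. BC CML mice lie apart from CP CML mice on the monocyte/macrophage (784 to 1005 against 211 to 329) and NK axes, whereas the groups overlap on the regulatory T cell axis, a sum in which Ikzf2 rose and Foxp3 fell 3.31-fold.

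Levels of different receptors were compared per kilobase of the listed gene length. In CP CML the order of mean CPM per kilobase was Cxcr4 (38.0 ± 12.4), Cxcr3 (35.0 ± 4.44), Cxcr6 (29.2 ± 5.58), Ccr9 (16.4 ± 3.52), Ccr2 (13.6 ± 1.84), Ccr4 (9.15 ± 1.13), Ccr8 (4.26 ± 0.522), Cx3cr1 (1.01 ± 0.411) and Ccr10 (0.491 ± 0.309). Cxcr4 was above Cxcr3 in only 5 of 8 mice, so these neighbours did not differ beyond their spread, and the other neighbours kept their order in 7 or 8 of 8 mice. In BC CML the order was Cxcr6 (62.8 ± 13.7), Cxcr4 (59.6 ± 15.6), Cxcr3 (51.3 ± 6.12), Ccr9 (41.3 ± 7.43), Ccr2 (10.6 ± 4.04), Ccr4 (5.05 ± 1.41), Cx3cr1 (3.19 ± 1.34), Ccr8 (2.91 ± 0.474) and Ccr10 (0.259 ± 0.242). Cxcr6 was above Cxcr4 in 3 of 6 BC CML mice, Cxcr4 above Cxcr3 in 4 of 6, and Cx3cr1 above Ccr8 in only 2 of 6, so these neighbours were not separated. The summed level of the 9 receptors was 147.1 ± 15.97 CPM per kilobase in CP CML and 237 ± 22.2 in BC CML, with ranges of 118.5 to 165.4 and 210.4 to 271 that did not overlap. Of that sum Ccr9 made up 11.1% ± 1.79 in CP CML and 17.4% ± 2.57 in BC CML, while the share of Ccr4 was 6.26% ± 0.848 and 2.11% ± 0.468.

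**Figure D4:**
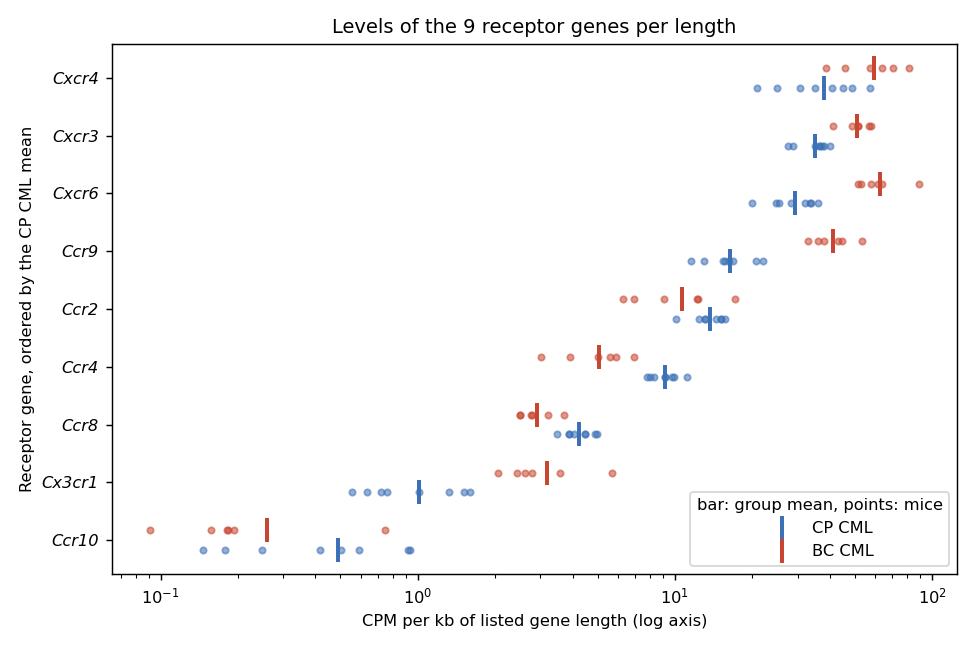
CPM per kilobase of listed gene length (horizontal log axis) for each receptor gene, with points for mice and a bar for the group mean, CP CML in blue and BC CML in red. Cxcr4, Cxcr3 and Cxcr6 lie close together at the top in both groups, and Ccr10 is lowest, at a mean of 0.491 in CP CML and 0.259 in BC CML.

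Whether receptors varied together among mice of the same group was examined in 72 relations, 36 pairs of members in each group, by exact two-sided permutation tests on log2 CPM. None passed Benjamini-Hochberg adjustment at 0.05. The closest was Cxcr6 with Ccr9 in CP CML, where Pearson's r over 8 mice was 0.894 (exact permutation p = 0.000818, adjusted p = 0.0589) and Spearman's rho 0.929 (exact permutation p = 0.00223, adjusted p = 0.161). Without the 2 mice farthest from the median of Cxcr6, r was 0.712. In the 6 BC CML mice the same pair had r = 0.865 (exact permutation p = 0.0236, adjusted p = 0.333), rho = 0.771 (exact permutation p = 0.103, adjusted p = 0.49) and r = 0.772 without 2 mice.

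A second family of 72 relations set each receptor beside log2 summed CPM of markers within a group. The markers were the monocyte, NK and regulatory T cell lists and 6 naive T cell markers. None of these relations passed the adjustment either. The highest r was that of Ccr2 with the regulatory T cell markers in BC CML (0.898, exact permutation p = 0.00972, adjusted p = 0.175). The lowest was that of Ccr9 with the naive markers in CP CML (-0.873, exact permutation p = 0.00687, adjusted p = 0.165). For Ccr2 r was 0.236 in CP CML, and for Ccr9 it was -0.484 in BC CML. Cx3cr1 followed the monocyte markers in CP CML with r = 0.728 over 8 mice (exact permutation p = 0.0325, adjusted p = 0.289) and rho = 0.595 (exact permutation p = 0.132, adjusted p = 0.544), and r was 0.549 without the 2 mice farthest from the median of the markers. In the 6 BC CML mice that r was 0.317 (exact permutation p = 0.51, adjusted p = 0.803), rho was 0.314 (exact permutation p = 0.564, adjusted p = 0.781), and r without 2 mice was 0.699. Cxcr6 was lower in CP CML mice with more naive T cell marker RNA, with r = -0.86 (exact permutation p = 0.00258, adjusted p = 0.165), rho = -0.881 (exact permutation p = 0.00724, adjusted p = 0.13) and r = -0.784 without 2 mice. In BC CML the same pair had r = -0.736 over 6 mice (exact permutation p = 0.111, adjusted p = 0.456) and rho = -0.486 (exact permutation p = 0.356, adjusted p = 0.781), and without 2 mice r turned to 0.767, so there it rested on those mice. At 6 to 8 mice per group these relations were not resolved.

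The genes whose pattern was most like each receptor were found from log2 CPM after subtracting each group's mean, over 14 mice and about 9160 genes. Libraries share depth and cell makeup, so these correlations are descriptions. Prdm15 (r = 0.964) and Kmt2d (0.959), a histone methyltransferase gene, were most like Ccr9. Ssh1 (0.957) and Elf4 (0.934), a transcription factor gene of CD8 T cells, were most like Cxcr6. The closest to Cxcr3 were Traf1 (0.925) and Tmtc4 (0.912), and those closest to Cxcr4 were Ddit4 (0.878) and Ube2s (0.875). For Ccr2 they were Itm2b (0.918) and Ifi30 (0.856), and for Ccr4 Capg (0.920) and Tmem229b (0.848). Hjurp (0.901), a centromere gene of dividing cells, and Krtcap2 (0.885) came nearest to Ccr8, Lrrk1 (0.915) and Sh3bp2 (0.904) to Cx3cr1, and Zmiz1 (0.847) and Cd37 (0.830) to Ccr10.

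The other chemokine receptors gave context. Of 14 examined, 8 had enough reads for a test and all 8 passed, 4 higher and 4 lower in BC CML, beside 65.2% of all tested genes. With the myeloid marker level as a covariate 4 of them passed, while the calls over all 12248 tested genes went from 7986 to 4200. Higher were Cxcr2 (log2 fold change 3.36), a neutrophil receptor at 0.637 ± 0.326 CPM in CP CML and 6.47 ± 3.26 in BC CML, Ccr1 (2.39), Ccr3 (0.99) and the decoy-like receptor gene Ccrl2 (0.65). Lower were Cxcr1 (-2.47), Ccr6 (-1.52), a receptor of type 17 T cells, and the lymphoid homing receptors Cxcr5 (-1.17) and Ccr7 (-1.05). Ccr7 went from 290.0 ± 22.6 to 140.4 ± 27.2 CPM without overlap.

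**Figure D5:**
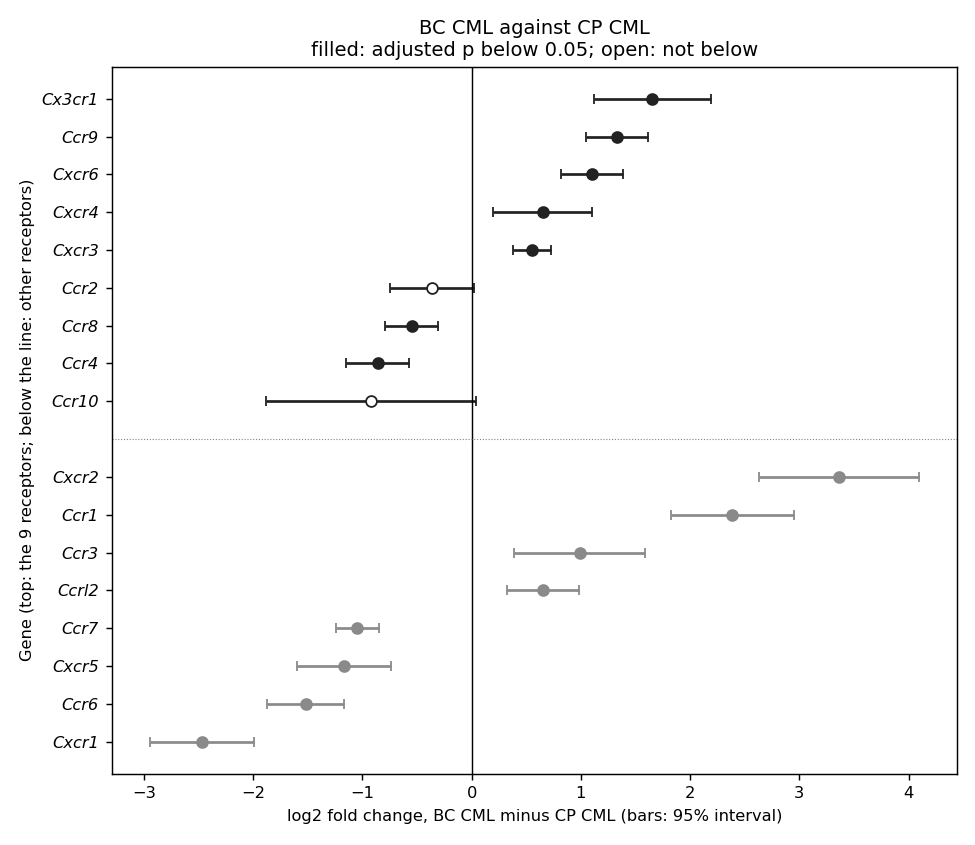
Log2 fold change of BC CML against CP CML (horizontal axis) with 95% intervals for the 9 receptor genes (black, top) and the 8 other chemokine receptors that were examined and tested (grey, below the line). Filled points passed the adjusted p threshold of 0.05, and Ccr2 and Ccr10 are open, with intervals that reach just above 0.

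Ccr9, Cxcr6 and Ccr2 lie in a cluster of receptor genes on chromosome 9, and the region from Sacm1l to Ccr2 (123529882 to 124113557) was looked at after values had been seen. It holds 12 listed genes, of which 8 were tested and 7 rose, against 32.6% of all tested genes. Those that rose were Sacm1l (log2 fold change 0.34), Ccr9 (1.33), Lztfl1 (1.202), Fyco1 (0.66), Cxcr6 (1.10), Ccr1 (2.39) and Ccr3 (0.99), whereas Ccr2 (-0.36) did not pass. Sacm1l, Lztfl1 and Fyco1 encode no chemokine receptor.

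Of the 16 ligands of the 9 receptors, 4 had enough reads in these T cell libraries for a test. Cxcl10, a ligand of CXCR3, rose from 1.67 ± 0.641 to 7.40 ± 3.04 CPM (log2 fold change 2.14, adjusted p = 2.91e-06). Cxcl16, the ligand of CXCR6 that macrophages and dendritic cells are known to make, rose from 0.478 ± 0.363 to 4.98 ± 0.831 (log2 fold change 3.38, adjusted p = 1.81e-07). Both were without overlap between groups, and whether they varied with the monocyte markers among mice was not tested. With the myeloid marker level as a covariate both still passed, Cxcl10 at 2.40 (adjusted p = 0.00487) and Cxcl16 at 1.72 (adjusted p = 0.0478). Ccl25 (0.14, adjusted p = 0.309) and Ccl27a (0.38, adjusted p = 0.200) did not pass. Of the 12 that were not tested, Ccl8 had 0 to 2 reads in CP CML and 4 to 55 in BC CML, and Cxcl12 had at most 1 read in any library.

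Genes that act downstream of the receptors were tested in full. Of 31, 17 were higher and 10 lower in BC CML, with a median log2 fold change of 0.20, beside 32.6% and 32.7% of all tested genes. With the myeloid covariate the calls went from 27 to 15, and those over all 12248 tested genes from 7986 to 4200. The largest rises were in Rgs18 (3.97), a brake on G protein signalling known from platelets and myeloid cells, Rgs3 (1.31), another such brake, which went from 88.9 ± 6.92 to 221 ± 26.6 CPM, and Grk3 (1.14), a kinase that desensitises receptors. The largest falls were in Grk6 (-0.58), a kinase of the same family, Elmo1 (-0.51), a partner of DOCK2 in cell movement, and Plcb2 (-0.43), a phospholipase.

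Among 8 tested transcription factors that are known to act on these receptors or on the cells that carry them, 5 were higher and 2 lower, beside 65.2% of all tested genes in either direction. Eomes (1.73), Zeb2 (1.66) and Tbx21 (1.12), which encode factors of effector and memory CD8 T cells and NK cells, had the largest rises, all without overlap between groups. Foxp3 (-1.73) fell most, followed by Klf2 (-0.61), which keeps naive T cells circulating. In the study's marker list of CD8 central memory T cells, taken without Cxcr3 and Cxcr6, 13 of 17 genes rose and 1 fell. From its naive T cell markers 6 were used here (Ccr7, Lef1, Tcf7, Il7r, Dapl1 and Klf2), and all 6 fell, with summed levels of 3625 to 4539 CPM in CP CML and 1911 to 2796 in BC CML. The study's list for naive CD8 T cells also holds 3 genes that were left out of these 6, Ccr9 and, shared with the memory list, Nkg7 and Plac8, and all 3 rose, by 1.33, 1.44 and 0.87 on the log2 scale. Since the study names Cxcr3 and Cxcr6 as markers of the memory subset and Ccr9 as a marker of naive CD8 T cells, these lists are not independent of the receptors.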

How the data were processed

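Spleen T cells of 8 CP CML and 6 BC CML mice were sequenced with paired reads of 101 bases after Kapa mRNA HyperPrep library preparation. The authors trimmed reads with Trimmomatic and FASTP, aligned them to mm10 with STAR (2.6.0), counted them per gene with HTSeq (0.11.1) and deposited raw read counts with gene positions and lengths. The gene annotation and the strand setting of the counting were not given in the sources used here.

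Counts were analysed with edgeR 4.0.16 in R 4.3.3: filterByExpr, TMM, the robust quasi-likelihood test without covariates, and Benjamini-Hochberg adjustment at 0.05. The study used the likelihood ratio test of edgeR, which was an alternative here, as were DESeq2 1.42.0, other scalings and filters, the replicate block, a myeloid marker covariate and leaving out each mouse. The standard error was the log2 fold change divided by the square root of F. Scripts were tested on simulated data. CPM used TMM-scaled library sizes, and log2 CPM a prior count of 2.

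Members and gene lists were chosen with earlier results of these data known. Named were all 9 members, the tested genes of the other receptor and ligand lists, up to 3 called genes per direction with the largest change in the signalling and regulator lists, the 2 genes most like each member among those with an average log2 CPM of at least 3, Mir142, and defining markers. Of the other receptor and naive T cell lists, 1 gene each is not reported here. The chromosome 9 neighbours were added after their values were seen. Pairs of replicates differed beyond sampling noise, and each library counts as its own sample. Replicate numbers come from the sample titles and belong to different animals. Intervals cover 95%. Uniqueness was checked with 101-base windows of GENCODE vM21 transcripts.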

Additional observations from a re-analysis of the deposited data

Results flagged for a closer look

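Among 46 groups of values examined (member levels, marker sums and depth, by group), 4 had a mouse far from the others by Dixon's criterion, where chance gives about 1 in 20, or 2.3. Cxcr6 was highest in BC CML replicate 2 at 170.9 CPM, and the next mouse was at 123.2. In the same mouse the summed innate-like T cell markers stood out at 30.48 CPM, against 5.18 to 10.8 in the other BC CML mice, and its library was the smallest of the group at 16145537 reads. Replicate 2 also had the highest Ccr2, Ccr9, Cxcr3 and Cx3cr1 of the BC CML mice and the lowest Cxcr4, but these values did not stand apart by the criterion. Ccr10 was highest in BC CML replicate 6 at 1.286 CPM.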

How the results depend on the processing

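Cxcr3, Cxcr6, Ccr9 and Ccr4 kept their direction and stayed called under each of 8 alternatives and in each of 14 fits that left out 1 mouse; their log2 fold changes over the alternatives were 0.52 to 0.68, 1.01 to 1.18, 1.26 to 1.45 and -0.92 to -0.81. With the myeloid marker level as a covariate, calls fell to 4200 of all genes, 4 members, 4 other receptors, 15 signalling genes and 5 regulators, while both ligands stayed called. That fit ended the calls of Cxcr4, Ccr8 and Cx3cr1, and Ccr10 turned to 0.047 (adjusted p = 0.977). The covariate and the group overlap, and the cause was not tested. Called ligands were 7 with DESeq2 and 9 without a filter, against 2. Both settings tested more genes with few reads, and DESeq2 also changed the scaling and the test, so the cause of its count was not tested.

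Without 1 mouse, members called ranged from 6 to 8, all genes called from 7721 to 7966, other receptors from 8 to 8, ligands from 2 to 3, signalling genes from 27 to 28 and regulators from 7 to 7. The low-count Ccr10 was removed by the filter in 5 of those fits and under the stricter CPM filter.

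Replicate numbers paired no animals: deviations of same-numbered mice correlated at -0.273 to 0.356 over 6 pairs. With the replicate block 7318 genes and 8 members were called, with Ccr10 (-1.25, adjusted p = 0.0488) added. Undivided by length, the order of levels changed for Cxcr3, Cxcr4, Cxcr6 and Ccr9 in both groups and for Ccr2 in CP CML, with Ccr9 first. Few reads limit Ccr10 (3 to 32 per library) and Ccr8, and to a lesser degree Cx3cr1.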
